A study of Mus musculus with 13 samples.

Results

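Foxd3, Tfap2a, Pax3, Cdh19, Pmp22, L1cam, Egr2 and Ncam1 are 8 genes used to mark the neural crest and the Schwann cell lineage that descends from it. They were taken by gene symbol from a table of 30332 genes measured by RNA sequencing, and all 8 were present. The study followed mouse embryonic fibroblasts under a chemical cocktail named VCR and compared them with neural stem cells, with 1 RNA-seq library in each of 9 groups. All the cells were at passage 3 and came from a Nestin::GFP strain, whose transgene reports activity of Nestin, an intermediate filament gene of neural stem and progenitor cells that other dividing cells can also express. The fibroblasts were isolated at E13.5. D0 fibroblasts received no VCR, and D1 and D2 fibroblasts were taken unsorted on those days of VCR. On day 4 and day 8 of VCR the cells were separated by flow cytometry into a GFP+ and a GFP- fraction, called here by their day. NSC denotes sorted GFP+ primary neural stem cells. GF denotes sorted GFP+ cells from fibroblasts given growth factors in place of VCR, namely 2 days of IL6 (50 ng/ml), 4 days of FGF5 (50 ng/ml) and LIF (100 ng/ml) together, and afterwards bFGF plus EGF (20 ng/ml of either). No untreated library from D1 to D8 was analysed, so time in culture and VCR cannot be told apart against D0. Because each group is 1 library, every difference below is between libraries and carries no test of the conditions.

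The neural crest arises at the border of the neural plate, leaves the dorsal neural tube and gives rise to peripheral neurons and glia, melanocytes and part of the connective tissue of the head. Part of it associates with growing nerves as Schwann cell precursors, which mature through immature Schwann cells into myelinating or non-myelinating Schwann cells. Foxd3, Tfap2a and Pax3 are transcription factors of the early crest, Cdh19 is a cadherin of Schwann cell precursors, and L1cam and Ncam1 are immunoglobulin-type adhesion molecules of nerve and Schwann cells. Egr2, also named Krox20, is the factor that drives the myelin programme, and Pmp22 encodes a membrane protein of compact peripheral myelin. Several have other sites of expression: Pmp22 was also described as a growth arrest gene of fibroblasts, Egr2 is an early response gene of many cell types, and Pax3 marks muscle progenitors.

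Promoter sequence is shown for 3 genes that stood for the 3 patterns described below, a factor that was high in both GFP+ libraries, an adhesion gene that was high there and also in NSC, and a gene that was low in both. The bases lie upstream of the annotated start and outside the gene, run 5′ to 3′ on the gene's strand, and come from RefSeq on assembly GRCm38.p6. Capitals mark CG dinucleotides. The Foxd3 stretch is chr4:99656049-99656298 on the plus strand, the L1cam stretch is chrX:73880839-73881084 on the minus strand, and the Pmp22 stretch is chr11:63128732-63128981 on the plus strand.
Foxd3: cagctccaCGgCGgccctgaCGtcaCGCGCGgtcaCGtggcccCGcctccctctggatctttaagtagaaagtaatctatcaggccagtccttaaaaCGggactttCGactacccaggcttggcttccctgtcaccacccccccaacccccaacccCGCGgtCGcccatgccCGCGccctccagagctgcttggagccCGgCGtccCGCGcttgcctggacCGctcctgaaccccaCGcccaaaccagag
L1cam: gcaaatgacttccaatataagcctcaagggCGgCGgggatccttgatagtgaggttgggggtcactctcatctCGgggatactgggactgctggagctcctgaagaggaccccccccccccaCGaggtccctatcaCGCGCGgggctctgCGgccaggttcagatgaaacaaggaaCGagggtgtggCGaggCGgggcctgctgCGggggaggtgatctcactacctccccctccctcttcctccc
Pmp22: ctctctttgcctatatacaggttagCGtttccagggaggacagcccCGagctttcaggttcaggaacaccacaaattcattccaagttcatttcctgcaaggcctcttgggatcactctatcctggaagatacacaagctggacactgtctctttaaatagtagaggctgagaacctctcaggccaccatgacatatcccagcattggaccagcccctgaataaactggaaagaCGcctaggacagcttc
The windows of these promoters, from 250 bases before to 50 after the start, held 25 CG dinucleotides for Foxd3, 22 for L1cam and 3 for Pmp22, against a median of 7 over 32851 promoter windows. The Pmp22 value depends on the start, since the other 3 Pmp22 windows, which lie within the gene's span, held 18, 20 and 30. Promoter windows were at hand for 5 of the 8 genes, 14 windows in all counting alternative starts, some of which overlap. Both strands were searched for the SOX motifs ACAAAG and ACAATG, the AP-2 motif GCCNNNGGC, the EGR motif GTGGGCG, the forkhead motif TGTTTAC, the palindromic TAAT motif of paired-class homeodomains and the TATA motif TATAAA. None of these letters occurred in 11 of the 14 windows, including all windows of Foxd3, Tfap2a and L1cam. The AP-2 motif, found in 16.6% of all promoter windows, occurred in 3 member windows, of which 2 belonged to Pmp22 and 1 to Egr2, and that Egr2 window also held the EGR motif, found in 7.97% of all. The SOX motifs, found in 28.6% of all windows, occurred in 0 of the 14. The counts below are summed over each gene, so they do not show which start was used.

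Levels are in CPM, counts scaled to a common library total. CPM is not divided by gene length, so levels are compared between libraries and not between genes. Library totals ran from 20104940 counts in NSC to 36751356 in D0. Intervals in brackets are exact 95% intervals and cover counting error only. A gene was called higher or lower where log2(CPM + 1) differed by 1 or more (2-fold) and at least 1 of the libraries had 5 CPM or more. In these bulk libraries fewer cells of a type and less RNA per cell cannot be told apart. The tissue labels were checked against defining markers. The 8 fibroblast markers summed to 13851 CPM in D0, 6398 and 7874 CPM in GFP- at day 4 and day 8, and 2413 and 2187 CPM in GFP+, and all 8 were at 5 CPM or more in each of these. The 8 markers of central neural stem cells were all at 5 CPM or more in NSC, summing to 1074 CPM, but only Prom1 and Fabp7 were so in the GFP+ libraries, which summed to 49.1 and 33.7 CPM.

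Foxd3, a forkhead factor of the premigratory crest, was high in the GFP+ libraries only. Its level was 1.61 CPM in D0, 1.75 in D1, 1.73 in D2, 2.27 in GFP- and 109 in GFP+ at day 4, 3.28 in GFP- and 111 in GFP+ at day 8, and 3.07 in GF. No count was recorded in NSC, where a floor of 3 counts equals 0.149 CPM and the exact upper limit is 0.183 CPM. The GFP+ libraries at both days did not differ beyond counting error (ratio 1.02, 0.976 to 1.07), and from GFP- at day 8 down to D0 each library overlapped the next. GFP+ exceeded GFP- by 47.9-fold (37.3 to 62.6) at day 4 and by 34.0-fold (27.1 to 43.1) at day 8. Foxd3 lies on chromosome 4 (99656299 to 99658671).

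Pax3, a paired-box factor of the dorsal neural tube, the crest and melanoblasts, had the same order of the sorted fractions. Its level was 0.773 CPM in D0, 0.923 in D1, 0.675 in D2, 1.87 in GFP- and 42.9 in GFP+ at day 4, 1.92 in GFP- and 55.3 in GFP+ at day 8, 8.71 in GF and 4.83 in NSC. The 3 unsorted libraries and the pair of GFP- libraries each overlapped among themselves, and the other 4 libraries were set apart in the order GFP+ at day 8, GFP+ at day 4, GF, NSC. The ratio of GFP+ to GFP- was 22.9 (17.4 to 31.1) at day 4 and 28.8 (21.5 to 39.8) at day 8. The muscle progenitor factors Myod1, Myf5 and Pax7 were listed at 0 in both GFP+ libraries, and the 8 skeletal muscle markers summed to 11.9 and 7.96 CPM there against 76.8 CPM in D0. In GF these markers summed to 58.1 CPM, and Pax7 was at 2.44 CPM there and at 0 in every other library. Their part in the Pax3 value of GF was not tested. Pax3 lies on chromosome 1 (78101267 to 78197136).

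Tfap2a, the AP-2 alpha factor of crest and surface ectoderm, was high in GF as well as in GFP+. Its level was 0.603 CPM in D0, 0.774 in D1, 0.885 in D2, 1.47 in GFP- and 16.1 in GFP+ at day 4, 1.79 in GFP- and 25.9 in GFP+ at day 8, 22.2 in GF and 5.43 in NSC. GF stood between the GFP+ libraries. GFP+ exceeded GFP- by 10.9-fold (7.96 to 15.5) at day 4 and by 14.5-fold (10.6 to 20.3) at day 8, the smallest ratios among the 5 members that were higher. From day 4 to day 8 the GFP+ level went up 1.61-fold (1.44 to 1.80), under the 2-fold threshold. The 8 keratinocyte markers, a check on surface ectoderm, summed to 12.6 and 7.79 CPM in GFP+ against 56.8 and 43.9 CPM in GFP-. Perp alone gave 54.7 and 40.3 CPM of the GFP- sums. In GF the markers summed to 17.8 CPM and in NSC to 48.4 CPM, with 2 markers at 5 CPM or more in each. Each GFP+ library had 1 such marker. Their part in the Tfap2a values was not tested. Tfap2a lies on chromosome 13 (40713802 to 40738238) and overlaps the long non-coding RNA gene Gm26688. Whether counting used strand is not given in the sources used here.

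**Figure D1:**
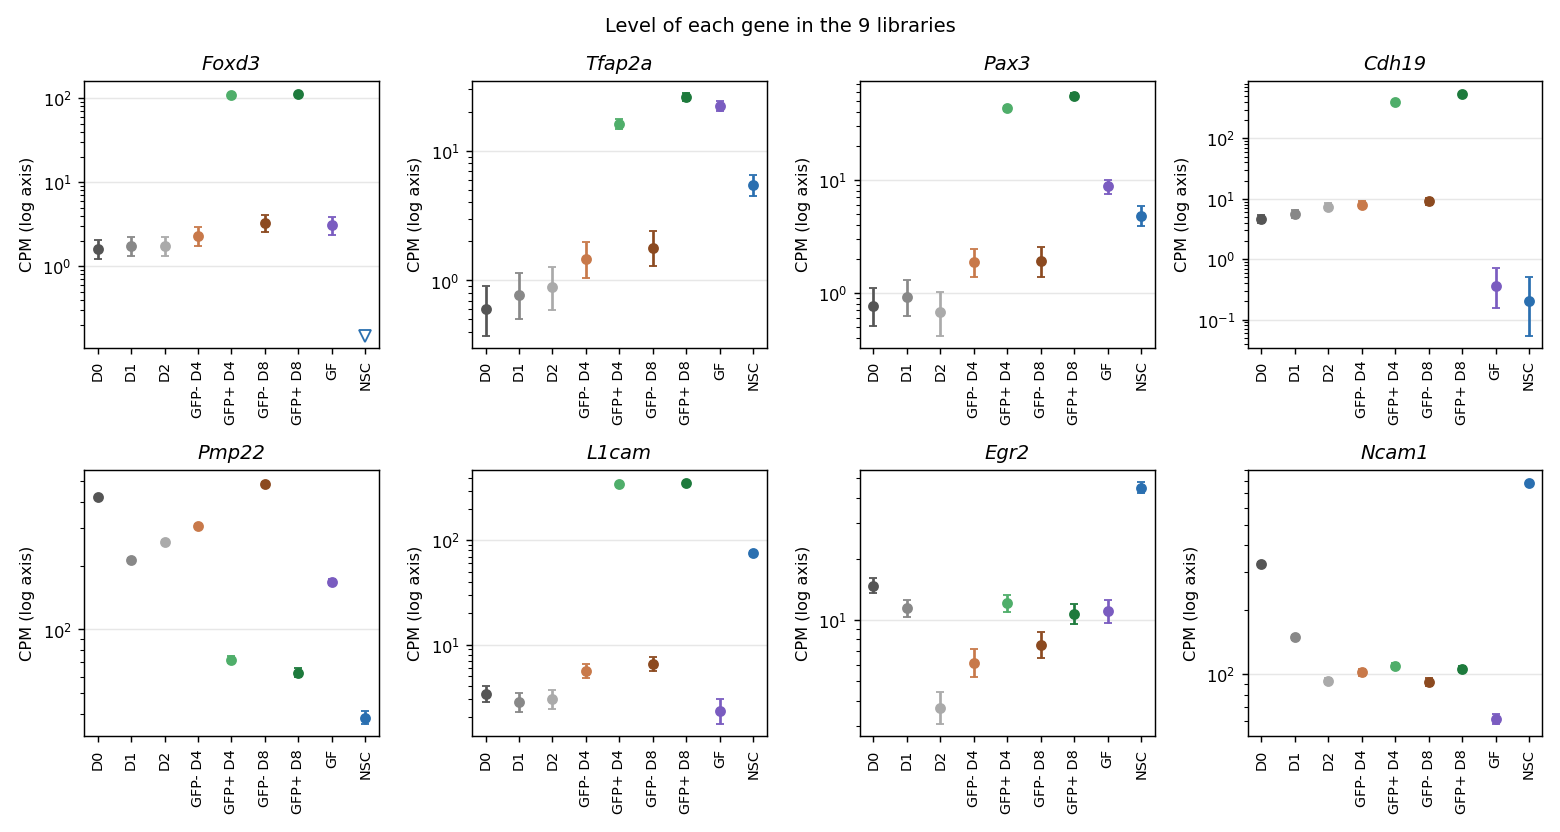
Level of each of the 8 genes (CPM, log10 axis) in the 9 libraries, with bars for the exact 95% Poisson interval and an open triangle at 3 counts where no count was recorded. Foxd3, Pax3, Cdh19 and L1cam stand highest in the GFP+ libraries, and Tfap2a in GFP+ at day 8, followed by GF. Pmp22 stands lower in GFP+ than in GFP-, and Egr2 and Ncam1 peak in NSC.

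Cdh19, a type II cadherin used as a marker of Schwann cell precursors, was high in both GFP+ libraries and nearly absent from GF and NSC. Its level was 4.63 CPM in D0, 5.59 in D1, 7.45 in D2, 7.94 in GFP- and 407 in GFP+ at day 4, 9.19 in GFP- and 553 in GFP+ at day 8, 0.361 in GF and 0.200 in NSC. The GF and NSC values rest on 8 and 4 counts. GFP+ exceeded GFP- by 51.3-fold (44.9 to 59.0) at day 4 and by 60.1-fold (52.6 to 69.1) at day 8. From day 4 to day 8 the GFP+ level went up 1.36-fold (1.33 to 1.39), under the threshold. GF and NSC, the other sorted GFP+ populations, lay below D0. Cdh19 lies on chromosome 1 (110888002 to 110977601).

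L1cam, an adhesion molecule of growing axons and of Schwann cells before myelination, was high in the GFP+ libraries and, at a lower level, in NSC. Its level was 3.38 CPM in D0, 2.80 in D1, 2.97 in D2, 5.58 in GFP- and 344 in GFP+ at day 4, 6.52 in GFP- and 358 in GFP+ at day 8, 2.32 in GF and 75.2 in NSC. Each of the 3 highest libraries stood apart from the next, and D0, D1, D2 and GF overlapped with their neighbours in order. The ratio of GFP+ to GFP- was 61.7 (52.4 to 72.6) at day 4 and 54.8 (46.8 to 64.9) at day 8. L1cam lies on the X chromosome (73853778 to 73880838).

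Ncam1, the founding member of the NCAM family and a molecule of many neural and mesenchymal cells, did not separate the fractions. Its level was 327 CPM in D0, 149 in D1, 92.8 in D2, 102 in GFP- and 109 in GFP+ at day 4, 91.8 in GFP- and 105 in GFP+ at day 8, 61.4 in GF and 780.0 in NSC. The fall from D0 was present at D1, 2.20-fold (2.13 to 2.28), and the later VCR libraries lay between 91.8 and 109 CPM. The difference between fractions was 0.09 at day 4 and 0.20 at day 8 on the log2 scale, and its sign turned to -0.18 and -0.0043 with median ratio scaling, and at day 4 also with TMM scaling (-0.19) and with totals without abundant genes (-0.03). NSC exceeded D0 by 2.38-fold (2.33 to 2.44), a call that was lost with median ratio scaling (0.71) and TMM scaling (0.20). Ncam1 lies on chromosome 9 (49502129 to 49799393) and overlaps the non-coding gene Gm11149, whose highest level was 1.59 CPM.

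Egr2, the myelin regulator, was not higher in GFP+ than in D0. Its level was 14.7 CPM in D0, 11.4 in D1, 3.68 in D2, 6.14 in GFP- and 12.1 in GFP+ at day 4, 7.53 in GFP- and 10.7 in GFP+ at day 8, 11.0 in GF and 44.8 in NSC. It was lowest in D2, 4.01-fold (3.28 to 4.92) below D0. GFP+ at day 4, D1, GF and GFP+ at day 8 followed each other in order without differing beyond counting error. GFP+ exceeded GFP- by 1.96-fold (1.64 to 2.36) at day 4 and by 1.42-fold (1.17 to 1.71) at day 8, both under the threshold on the log2(CPM + 1) scale. Egr2 lies on chromosome 10 (67534469 to 67542188) and overlaps the long non-coding RNA gene Gm32255.

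Pmp22 ran opposite to Foxd3, Pax3 and Tfap2a between the sorted fractions, being lower in GFP+ than in GFP-. Its level was 420.1 CPM in D0, 212 in D1, 258 in D2, 309 in GFP- and 72.0 in GFP+ at day 4, 488 in GFP- and 62.6 in GFP+ at day 8, 167 in GF and 38.3 in NSC. All neighbours in the order of its levels were apart beyond counting error, and the GFP- library at day 8 stood above D0, a sign that turned with median ratio (-0.06) and TMM (-0.15) scaling. GFP+ was below GFP- by 4.30-fold (4.11 to 4.49) at day 4 and by 7.80-fold (7.42 to 8.20) at day 8. The fibroblast marker sum was also lower in GFP+ than in GFP- at both days, although 1 of the 8 markers, Postn, was higher, at 1025 against 352 CPM and 1099 against 233 CPM. The part of that sum in the Pmp22 difference was not tested. Pmp22 lies on chromosome 11 (63128982 to 63159547).

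During the first days of VCR the crest factors among the 8 genes, Foxd3, Tfap2a and Pax3, did not pass the 5 CPM floor. Of 16 other crest factors, described below, 9 passed it at D1 and at D2. Sox9 was called lower at both days and Sox10 higher at D2 (1.02). Of the 8 genes, at D1 only Ncam1 was called, as lower, with 4 genes under the floor, against 6.63% of all genes called higher and 5.92% lower. Pmp22 was just inside the threshold at D1, with a log2 difference of -0.98. At D2 Egr2 and Ncam1 were lower, with 6.74% of all genes called higher and 6.04% lower. Cdh19 went from 4.63 CPM in D0 to 7.45 in D2, a 1.61-fold (1.32 to 1.97) difference in counts that was under the threshold, while Foxd3, Pax3, Tfap2a and L1cam did not differ from D0 beyond counting error at D1 or D2.

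Against D0, GFP+ was higher in 5 members and lower in 2 at both days. Of all genes, 38.5% were called higher and 11.3% lower at day 4, and 35.7% and 13.4% at day 8. The share called higher among called genes depended on scaling, 77.3% at day 4 against 50.0% with median ratio and 51.0% with TMM scaling, and 72.8% at day 8 against 50.4% and 47.8%. L1cam was 102-fold (85.5 to 123) above D0 at day 4 and 106-fold (88.8 to 128) at day 8. Cdh19 was 88.1-fold and 119-fold above D0, Foxd3 67.7-fold and 69.3-fold, Pax3 55.6-fold and 71.6-fold, and Tfap2a 26.6-fold and 43.0-fold. Pmp22 was lower by 5.84-fold and 6.72-fold, and Ncam1 by 3.01-fold and 3.11-fold. Only Egr2 was not called.

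Against D0, GFP- was called higher in no member, but 3 members were under the 5 CPM floor at both days. These were Foxd3, Tfap2a and Pax3, which could therefore not be called. Pmp22 did not pass the 2-fold threshold at either day, and Ncam1 was lower at both. Egr2 was lower at day 4 only, by a log2 difference of -1.14 that fell short with a pseudocount of 5 (-0.83). Of all genes, 11.0% were called higher and 5.28% lower at day 4, and 16.4% and 6.12% at day 8. The 5 members high in GFP+ were also above D0 in GFP- by count, with ratios from 1.41 (Foxd3) to 2.44 (Tfap2a) at day 4 and from 1.93 (L1cam) to 2.97 (Tfap2a) at day 8. Foxd3 at day 4 had an interval that held 1 (0.973 to 2.05). The GFP- level at day 4 was 1.62% of the GFP+ level for L1cam, 1.95% for Cdh19, 2.09% for Foxd3, 4.36% for Pax3 and 9.18% for Tfap2a. Carry-over of GFP+ cells in the sort was not tested.

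Between fractions of the same day, 5 members were higher in GFP+ and 1 was lower at both days. Of all genes, 25.4% were called higher and 11.5% lower at day 4, and 20.3% and 12.2% at day 8. Of the called genes, 68.7% were higher at day 4, against 51.7% with median ratio and 50.7% with TMM scaling, and 62.5% at day 8 against 49.9% and 52.0%. All 8 genes passed the 5 CPM floor, but Foxd3, Tfap2a and Pax3 passed only through GFP+ at both days. The median log2 difference was 3.36 at day 4 and 3.77 at day 8 over the 8 genes, and 0.25 and 0.16 over 14037 genes with a mean of 1 CPM or more. Between day 4 and day 8 no member was called in GFP+, where 1.28% of all genes were higher and 1.49% lower at day 8, and none in GFP-, where 3.68% were higher and 1.47% lower and 3 members were under the floor.

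**Figure D2:**
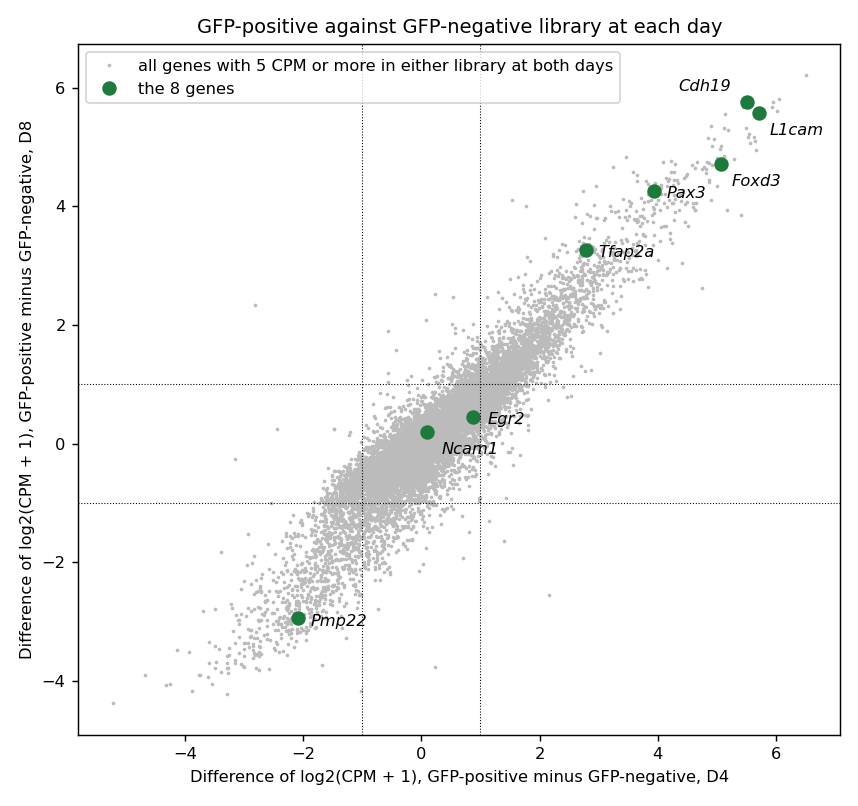
Difference of log2(CPM + 1) between GFP+ and GFP- at day 4 (x axis) and day 8 (y axis), with the 8 genes in green, grey points for all genes with 5 CPM or more in either library at both days, and dotted lines at the 2-fold threshold. Foxd3, Tfap2a, Pax3, Cdh19 and L1cam lie in the upper right corner, Pmp22 in the lower left, and Egr2 and Ncam1 between the lines.

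Macrophage markers also differed between the fractions. Their 8-gene sum was 260.3 CPM in GFP+ and 26.6 in GFP- at day 4, and 145 and 19.5 CPM at day 8, with Lyz2 at 185 and 83.5 CPM and Cd68 at 47.8 and 45.0 CPM in GFP+. At day 4 C1qb and Tyrobp were at 8.88 and 5.57 CPM in GFP+, and at day 8 Tyrobp alone of these was over 5 CPM. In NSC all 8 macrophage markers were at 5 CPM or more, and they summed to 523 CPM. Csf1r, which defines the lineage, was at 2.99 and 2.91 CPM in GFP+ and at 245 CPM in NSC. Egr2, a gene macrophages also use, was highest in NSC. The part of macrophages in the Egr2 values was not tested.

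The wider set of crest and Schwann lineage genes was described with lists that exclude the 8 members. Of 12 surface and adhesion genes of crest and Schwann precursors, 10 were higher in GFP+ than GFP- at both days and 1, Cdh11, was lower. Of all genes, 25.4% were called higher and 11.5% lower at day 4, and 20.3% and 12.2% at day 8. The median log2 difference of the list was 3.29 and 3.11, against 0.25 and 0.16 over all genes. All 12 passed the 5 CPM floor between fractions, but only 6 did when GFP- was compared with D0. Genes that passed only through GFP+, such as Ngfr, Erbb3 and Kit, could be called only as higher. Erbb3, the neuregulin receptor on which Schwann precursors depend, was at 385 CPM in GFP+ and 3.25 in GFP- at day 4, and at 401 and 4.42 CPM at day 8. Ngfr, the p75 neurotrophin receptor used to isolate crest cells, was at 167 against 4.64 CPM at day 4 and at 201 against 3.94 CPM at day 8. The growth cone protein gene Gap43 was higher by 16.2-fold and 17.3-fold, and Kit, the receptor of melanoblasts, was at 14.5 and 26.4 CPM in GFP+ and at 0 and 0.298 CPM in GFP-.

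Of 16 other crest transcription factors, 4 were higher in GFP+ (Sox10, Sox9, Ets1 and Tfap2b) and 5 were lower (Snai1, Snai2, Twist1, Zic1 and Id3) at both days, against 25.4% of all genes higher and 11.5% lower at day 4 and 20.3% and 12.2% at day 8. Zic1 was lost at both days with a pseudocount of 5 (-0.85 and -0.79). The medians were -0.36 and -0.86 over the 14 factors with a mean of 1 CPM or more. Sox10, the factor kept from crest to Schwann cell, was at 652 against 9.11 CPM at day 4 and at 748 against 14.3 CPM at day 8. Ets1 was higher by 11.7-fold and 9.80-fold. Twist1, which marks mesenchyme and the mesenchymal crest of the head, was lower by 10.5-fold (9.42 to 11.8) and 15.9-fold (14.1 to 18.0). Id3, an inhibitor of basic helix-loop-helix factors, was lower by 11.4-fold and 6.94-fold. Snai1, Snai2 and Twist1 are also expressed by fibroblasts, whose marker sum was lower in GFP+. The part of that difference in these values was not tested.

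Among 14 genes of Schwann cell identity and early differentiation, 8 were higher in GFP+ at day 4 and 9 at day 8, and none was lower, against the same 25.4% and 20.3% of all genes higher. The medians were 2.58 and 2.83 over 13 genes, and Gfap at day 8 fell under the 5 CPM floor with median ratio and TMM scaling, at differences of 2.35 and 2.37. Dhh, the hedgehog ligand that Schwann cells send to the nerve sheath, was at 164 against 2.30 CPM at day 4 and at 208 against 5.06 CPM at day 8. Of 16 peripheral myelin genes, 7 were higher at day 4 and 5 at day 8, and none was lower, and Mbp was lost at both days with a pseudocount of 5 (0.99 and 0.80). Between fractions, 10 and 11 of the Schwann genes and 7 and 6 of the myelin genes passed the floor at day 4 and day 8. For GFP- against D0 these counts were 5 and 7, and 4 and 4. Genes that passed only through GFP+ could be called only as higher. Pou3f1, which acts with Egr2 at the onset of myelination, was at 0.460 and 0.520 CPM. Gldn was higher by 37.4-fold and 21.6-fold, Pllp by 33.7-fold and 19.4-fold, and Cnp by 6.75-fold and 9.27-fold, while Mag, Prx, Gjb1, Cldn19, Fa2h, Ncmap and Ugt8a stayed below 5 CPM in both fractions at both days. Against D0, 38.5% of all genes were called higher in GFP+ at day 4 and 35.7% at day 8. GFP+ was higher at those days in 11 and 10 of the 12 surface genes and in 4 and 5 of the 16 crest factors. It was also higher in 9 and 10 of the 14 Schwann genes and in 7 and 4 of the 16 myelin genes. Among these calls, Sox5, Itga4, Mbp and Mpdz at day 4 and Sox9, Sox5 and Fabp7 at day 8 dropped below a difference of 1 under either of median ratio and TMM scaling. Gfap at day 8 fell under the floor there, with a difference of 1.92 in both. In GFP- against D0, 3 and 5 of the 16 crest factors were higher at day 4 and day 8, and Sox9 was lower. Of all genes, 11.0% and 16.4% were higher. With median ratio or TMM scaling the crest counts were 1 and 3. Sox10 was called at both days (1.36 and 1.96), the day 4 call being lost with a pseudocount of 5 (0.83). The crest medians were 0.60 and 0.71 in GFP-, and -0.03 and -0.32 in GFP+. The surface list had 1 and 1 higher, the Schwann list 2 and 4, and the myelin list 0 and 1.

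**Figure D3:**
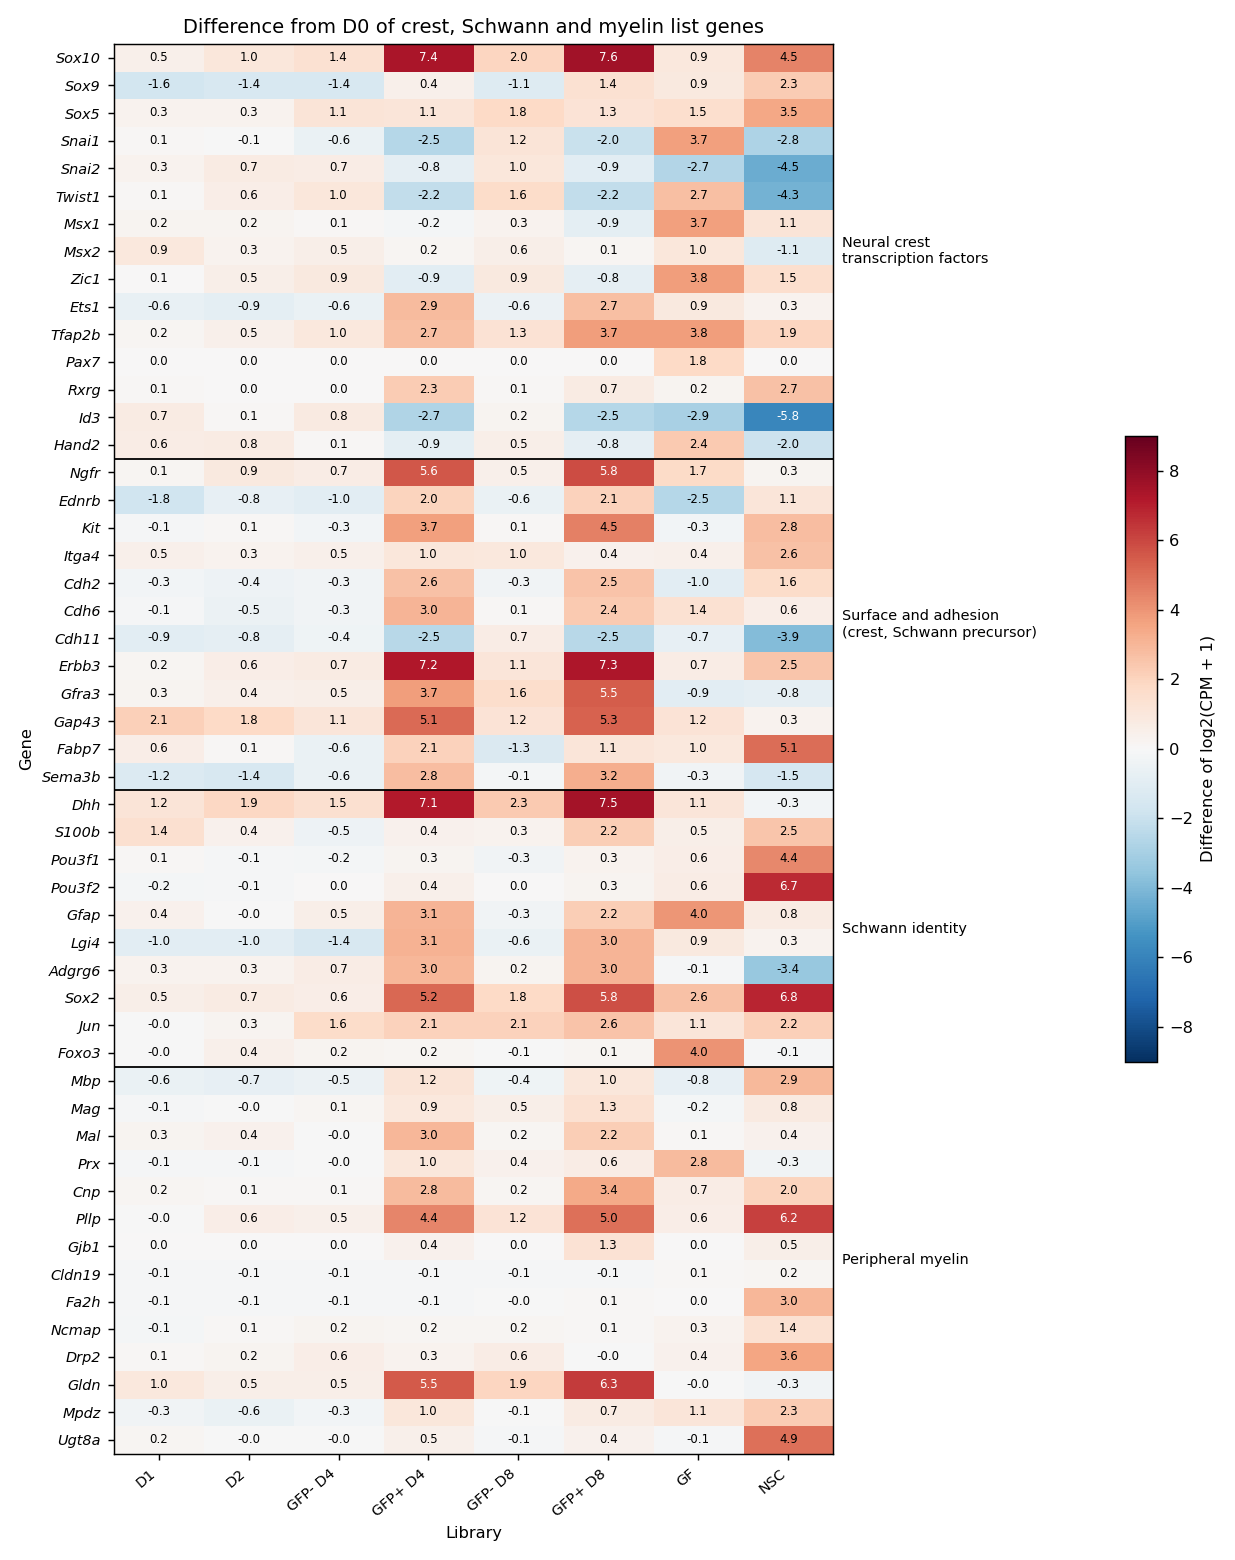
Difference from D0 of log2(CPM + 1), printed in each cell and as colour (red above D0, blue below), in the other 8 libraries (columns) for genes of the crest, surface, Schwann and myelin lists (rows). Sox10, Erbb3 and Dhh are strongly red in the GFP+ libraries, whereas Twist1 and Id3 are blue there.

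Some close relatives of the members shared their pattern, while others went the other way or were hardly expressed. In the FoxD family Foxd1 was at 0.948 and 0.277 CPM in GFP+ against 4.86 and 7.19 CPM in GFP-, Foxd2 did not exceed 4.25 CPM in the sorted VCR libraries and Foxd4 was listed at 0 in all 9. Of the PAX genes Pax1 was lower in GFP+ at both days, at 2.36 and 1.18 CPM against 12.4 and 11.0 CPM, Pax9 was lower at day 8, at 0.974 against 6.05 CPM (-0.89 with a pseudocount of 5, no longer called), and Pax6 reached 5 CPM only in NSC. Tfap2b did follow Tfap2a, at 9.10 against 1.99 CPM at day 4, 19.5 against 2.77 CPM at day 8 and 20.0 CPM in GF. Tfap2c passed 5 CPM only in GF, at 7.13 CPM.

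Among 13 type II cadherins, Cdh6 and Cdh10 were higher in GFP+ with Cdh19. Cdh6, a cadherin of the early crest, was higher by 15.6-fold and 6.25-fold and Cdh10 by 31.7-fold and 15.9-fold. Cdh11, a cadherin of mesenchyme, was lower by 4.36-fold and 8.84-fold. Of the L1 and NCAM group, Nrcam was at 306 against 31.5 CPM at day 4 and at 319 against 68.6 CPM at day 8, and Chl1 was higher by 8.14-fold and 2.46-fold. Nfasc and St8sia2, which adds polysialic acid to NCAM, were lower at day 8 only, the Nfasc call being lost with a pseudocount of 5, and Ncam2 was below 5 CPM in all libraries but NSC. In the PMP22 family Perp was lower in GFP+ by 4.87-fold and 6.65-fold with Pmp22, Emp3 was lower at day 4 only, by 2.18-fold, and Emp1 and Emp2 were not called. None of the other EGR genes was called between fractions, and of their co-repressors Nab2 was lower at day 4, at 13.3 against 29.9 CPM, a call lost with a pseudocount of 5.

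**Figure D4:**
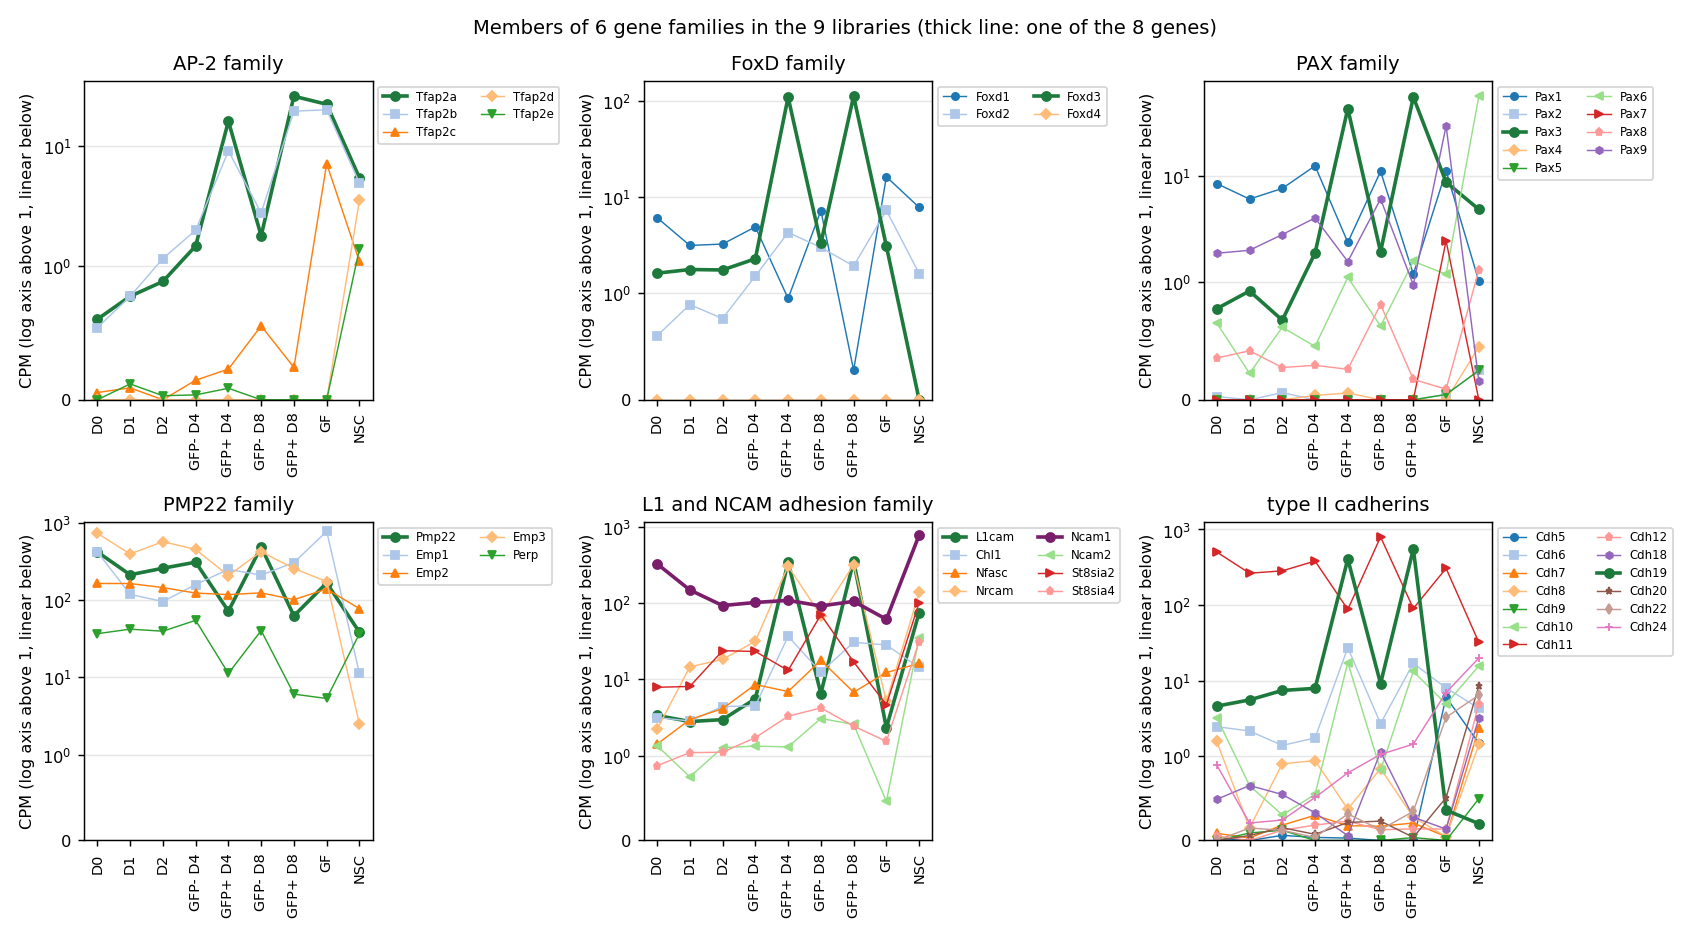
Level (CPM, axis linear below 1 and logarithmic above) across the 9 libraries for 6 gene families, with the members as thick lines and their relatives as thin lines. Lines join libraries only to guide the eye, and Tfap2b, Cdh6 and Nrcam are high with the members in GFP+ while Pax1 and Cdh11 are lower there than in GFP-.

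NSC and GF carried different subsets of the members. Against D0, NSC was higher in 4 members (L1cam, Tfap2a, Egr2 and Ncam1) and lower in Pmp22, with 3 under the floor, against 49.9% of all genes called higher and 17.4% lower. L1cam was 22.3-fold (18.6 to 27.0) and Tfap2a 9.01-fold (5.69 to 15.0) above D0. With TMM scaling only L1cam, Pmp22 and Cdh19 were called, and Tfap2a, at 5.43 CPM in NSC, fell under the 5 CPM floor with TMM (1.29) and median ratio (1.67) scaling and below a difference of 1 with a pseudocount of 5 (0.90). Foxd3, at 0 counts in NSC, was 10.8-fold lower than in D0 when 3 counts in NSC are taken as the floor. The exact lower limit for counting error was 8.48-fold. Besides L1cam and Ncam1, the other 6 genes of the L1 and NCAM group were higher in NSC than in D0, among them Nrcam at 139 CPM, Ncam2 at 35.2 CPM and St8sia2 at 102 CPM. Over all 8 genes of the group, median ratio scaling left 7 calls and TMM scaling 6.

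GF was higher than D0 in Tfap2a, by 36.9-fold (24.2 to 59.7), and in Pax3, by 11.3-fold (7.67 to 17.7), and lower in Pmp22, by 2.52-fold, and Ncam1, by 5.34-fold, with 32.1% of all genes called higher and 16.0% lower. Foxd3, Cdh19 and L1cam were under the floor. Of the 16 other crest factors, 8 were higher than in D0 (Sox5, Snai1, Twist1, Msx1, Msx2, Zic1, Tfap2b and Hand2) and 2 were lower, against 5 and 3 in GFP+ at day 8. The Msx2 call, a difference of 1.01, was lost with median ratio (0.96) and TMM (0.82) scaling, with a pseudocount of 5 (0.63) and with totals without abundant genes (0.93). The fibroblast marker sum in GF was 16152 CPM, above the 13851 CPM of D0, and its part in these values was not tested. Twist1 was at 334 CPM in GF against 9.87 CPM in GFP+ at day 8, whereas Sox10 was at 6.59 against 748 CPM and Erbb3 at 3.07 against 401 CPM.

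Set directly against NSC, GFP+ at day 8 was higher in Foxd3, Tfap2a, Pax3, Cdh19 and L1cam and lower in Egr2 and Ncam1, with 17.8% of all genes called higher and 33.9% lower. Of the called genes 34.4% were higher, against 56.4% with TMM scaling. Foxd3 was 745-fold higher when 3 counts in NSC are taken as the floor, which lies under the exact upper limit of 0.183 CPM there. Cdh19 was 2768-fold (1085 to 10197) higher. Set against GF, GFP+ at day 8 was higher in Foxd3 by 36.2-fold, Pax3 by 6.35-fold, Cdh19 by 1531-fold (777 to 3546) and L1cam by 154-fold (118 to 209), and lower in Pmp22, with 28.2% of all genes called higher and 21.5% lower. Of the called genes 56.7% were higher, against 40.3% with median ratio and 44.9% with TMM scaling. Tfap2a differed by 1.17-fold (1.04 to 1.31), and its sign turned with median ratio (-0.16) and TMM (-0.06) scaling. Between GF and NSC, 21.2% of all genes were called higher in GF and 42.4% lower, Tfap2a and Pmp22 were higher in GF, and L1cam, Egr2 and Ncam1 were lower. Of the called genes 33.3% were higher in GF, against 46.1% with median ratio and 57.5% with TMM scaling. These comparisons share libraries with one another, and 8 of the 15 share D0.

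**Figure D5:**
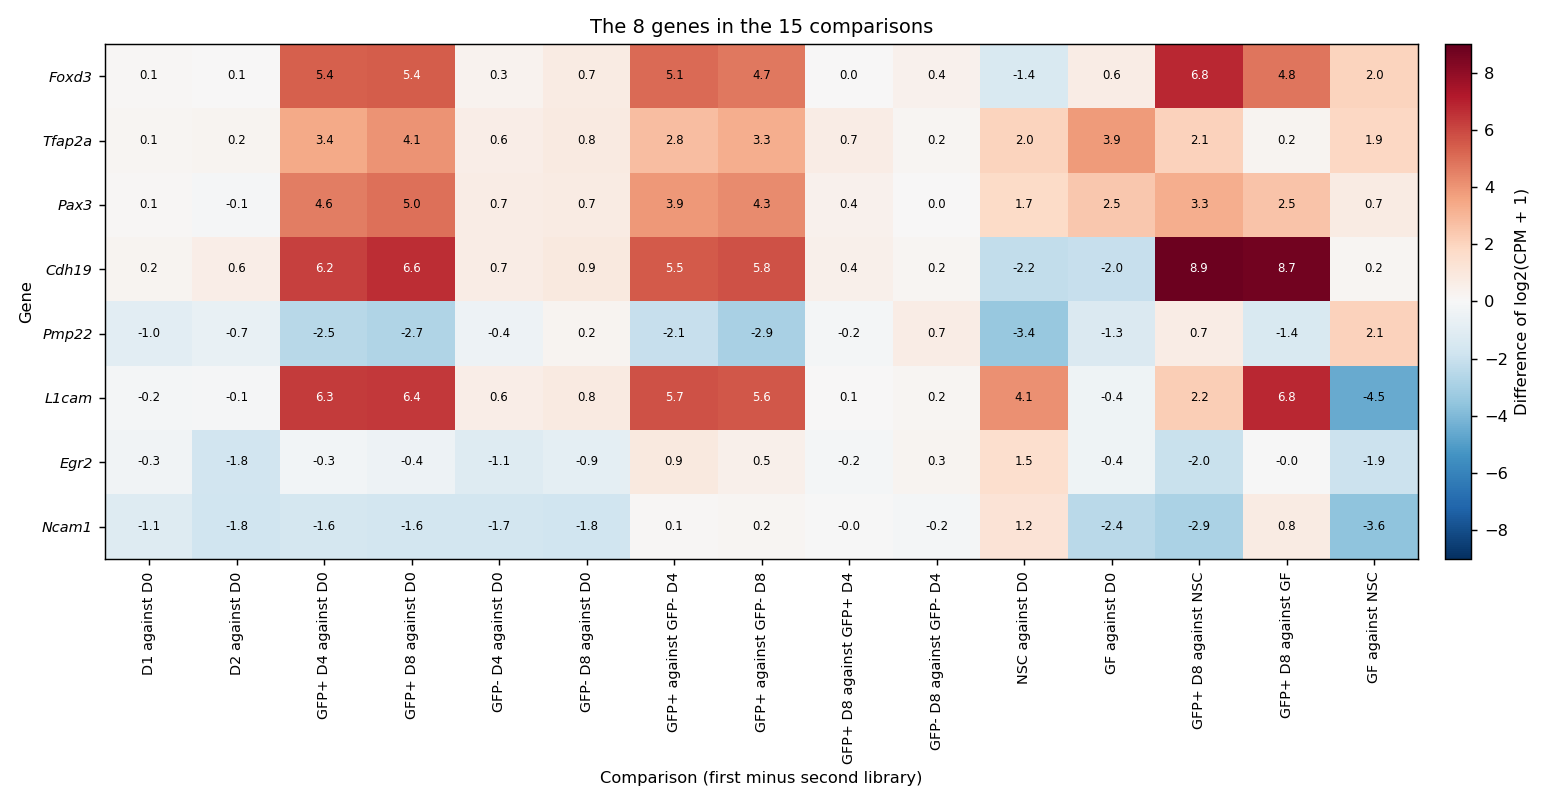
Difference of log2(CPM + 1) of the 8 genes (rows) in 15 comparisons between libraries (columns), printed in each cell and as colour (red for higher in the first library, blue for lower). Foxd3, Tfap2a, Pax3, Cdh19 and L1cam are positive wherever GFP+ is compared with D0 or GFP-, and Pmp22 is negative there.

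Likeness of the members in log2(CPM + 1) over the 9 libraries is given as Pearson's r, as a description. All libraries but NSC came from fibroblasts. Foxd3 and Cdh19 had r = 0.949, Tfap2a and Pax3 0.926, and Pax3 had 0.866 with both Foxd3 and L1cam. L1cam had 0.749 with Foxd3, 0.733 with Cdh19 and 0.671 with Tfap2a. Egr2 and Ncam1 had 0.816, while L1cam and Pmp22 ran opposite, at -0.807. Among the 10763 genes that reached 20 CPM somewhere, the genes most like Foxd3 were Dhrs3 (0.991), Il10rb and Acbd3, and those most like L1cam were Fign (0.999), Gcnt1 and Syt4. Those most like Cdh19 were Fgf5 (0.993), Insc and Cyp2j6, and Fgf5, a growth factor gene, was at 454 and 391 CPM in GFP+ and at 0.544 CPM in GF. Pcdh1 (0.994), Arap3 and Cerk were most like Pax3, and Gramd1b (0.992), Nlrc5 and Tsc22d4 most like Tfap2a. For Pmp22 the nearest were Hist1h1c (0.987), Vegfd and Cdh11, for Egr2 Slc25a11 (0.962), Enoph1 and Oscp1, and for Ncam1 Ap4s1 (0.974), Tmem80 and Anapc15.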

How the data were processed

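RNA was sequenced in 9 libraries, 1 per group, and groups were taken from sample titles. The authors deposited estimated counts per gene symbol, partly fractional, for 30332 genes. Per the submitters' processing notes, the series used kallisto 0.43.1 and build GRCm38. Sources used here name neither annotation nor strand setting. The plan had assumed TPM, and the column sums showed counts, so CPM was computed from column totals. A group of 1 library allows neither p-values nor SDs, and intervals are exact Poisson for CPM and exact conditional binomial for ratios. The steps were tested on simulated data. Python 3.11.15, scipy 1.17.1, R 4.3.3 and edgeR 4.0.16 (TMM factors) were used. Positions and promoters came from RefSeq (GRCm38.p6). Members and lists were chosen with earlier results of these data known. Besides members, up to 4 genes per list with the largest difference between fractions at both days, paralogues, the 3 genes most like each member and markers over 5 CPM were named. A few other genes were named after their values were seen, and some that the rule names are not reported here. 4 ATAC-seq samples were not analysed here. Other settings were pseudocounts of 0.1 and 5, no floor, a floor of 1 CPM, median ratio and TMM scaling, and totals leaving out the 20 most abundant, ribosomal protein and mitochondrial genes.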

Additional observations from a re-analysis of the deposited data

Results flagged for a closer look

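Twist1, a mesenchymal factor among the crest genes, moved in opposite directions in the sorted fractions. At day 4 its log2 difference from D0 was -2.23 in GFP+ and 1.04 in GFP-, and at day 8 it was -2.23 in GFP+ and 1.63 in GFP-. The levels were 50.1 CPM in D0, 9.86 and 9.87 CPM in GFP+ and 104 and 157 CPM in GFP-. The difference between the fractions' changes was not tested, since each fraction is 1 library a day and both share D0. The GFP- call at day 4 was lost with a pseudocount of 5 (0.98), median ratio scaling (0.72), TMM scaling (0.75) and totals without abundant genes (0.99).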

How the results depend on the processing

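Under 7 other settings, 98 of 105 counts of called members stayed within 1.5 times the main count and 7 moved, and of 600 differences 409 stayed within the counting interval, 191 moved beyond it and none reversed a call. The D1 count against D0 was 2 rather than 1 with totals without mitochondrial, ribosomal protein and abundant genes, which added Pmp22 (-1.01). GFP- against D0 gave 1 rather than 2 at day 4 with a pseudocount of 5, which lost Egr2, and 2 rather than 1 at day 8 with median ratio and with TMM scaling, which added Egr2 (-1.15 and -1.23). NSC against D0 gave 8 rather than 5 without a floor and with a floor of 1 CPM, and 3 with TMM scaling. The higher share of called genes moved by over 10 points under a scaling in other comparisons too: GFP- against D0 at day 4 to 40.6% and 44.0% with median ratio and TMM scaling, and at day 8 to 50.4% and 43.4%, NSC against D0 to 60.9% and 45.6%, GF against D0 to 55.3% with TMM, and GFP+ at day 8 against day 4 to 57.0% with a pseudocount of 5 and 63.2% with median ratio. Of 1456 counts in the lists, chosen as alternatives after seeing the data, 142 moved. No paired analysis was possible because each group holds 1 library. Depth limits the low values: 3 counts equal 0.0816 CPM in D0 and 0.149 CPM in NSC.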

Other observations

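Genes of other neural crest derivatives were mostly low in the GFP+ libraries. Of 10 melanocyte genes, Kit and Ednrb were higher in GFP+ than in GFP- at both days and Mitf, the lineage's master factor, was lower, at 3.16 against 11.0 CPM at day 4 and 2.70 against 11.8 CPM at day 8, the day 4 call being lost with a pseudocount of 5 (-0.97). The pigment genes Tyr, Tyrp1, Dct, Mlana, Slc45a2 and Oca2 were each at or below 0.261 CPM in GFP+ at both days. Pmel, the remaining pigment gene of the list, did not reach 5 CPM in either fraction at either day. Ednrb, the endothelin receptor of migrating crest and melanoblasts, was at 313 and 344 CPM in GFP+ against 39.7 and 51.7 CPM in GFP-. Of 12 autonomic and sensory neuron genes only Stmn2 was called, at 57.7 against 16.3 CPM at day 4 and 104 against 23.4 CPM at day 8.

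Gfra3, a receptor subunit found in Schwann precursors, was at 24.5 CPM in GFP+ at day 4 and at 83.5 CPM at day 8, against 1.76 and 4.59 CPM in GFP- and it was listed at 0 in GF. Sema3b, a secreted semaphorin, was at 87.9 and 122 CPM in GFP+ against 7.50 and 10.8 CPM in GFP-. Lgi4, which Schwann cells secrete to promote myelination, was at 23.5 and 22.5 CPM in GFP+ against 0.0731 and 0.851 CPM in GFP-. Adgrg6, an adhesion receptor needed for Schwann cell myelination, was at 104 and 106 CPM against 20.1 and 14.0 CPM.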
